A study of Homo sapiens with 4 samples.

Results

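Cells make cholesterol and fatty acids from acetyl-CoA with enzymes whose genes are largely switched on together, and 34 genes of this machinery were followed here by their listed symbols, out of 28285 gene rows. They comprise 17 enzymes of the sterol route, 6 genes of sterol sensing and transfer and 11 enzymes of fatty acid synthesis, elongation and desaturation. Each symbol had exactly 1 row in each of the 4 tables, and all 34 passed the filter on low values, at least 1 TPM in at least 2 libraries. The cells came from the established human embryonic stem cell line H1, in which an enhanced green fluorescent protein (eGFP) reporter had been knocked into GATA2, a gene for a zinc-finger transcription factor of blood progenitors. The GFP-positive group was sorted as eGFP+CD34+CD31+CD43- and labelled hemogenic endothelium, the endothelium that gives rise to blood. The GFP-negative group was sorted as eGFP-CD34+CD31+CD43- and labelled endothelial cells. Both groups carry the same knock-in, all 4 titles also name Cre without giving its role, and the titles and source names of both groups call the cells hemogenic endothelium. Each group had 2 libraries from this 1 cell line, and no label states whether the replicates were independent cultures. The p-values therefore measure only how far these libraries spread, which may be technical.

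Levels are in TPM, a measure of transcript abundance that corrects for gene length and is scaled to the same total in every library. TPM keeps no read total, so the depth behind each value is unknown. Fold changes are on a log2(TPM + 1) scale, GFP-positive over GFP-negative, from limma, a linear model with a shared variance estimate across genes, and this scale understates the change of low genes. Each SE is that of the limma fit over the 4 libraries.

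Sterol synthesis begins with the joining of acetyl-CoA units into mevalonate, goes through isoprenoid units to squalene, and ends with the conversion of lanosterol to cholesterol. Fatty acid synthesis starts from the same acetyl-CoA and makes saturated chains that elongases lengthen and desaturases give double bonds. Many genes of both routes are targets of the sterol regulatory element-binding proteins (SREBPs), which SCAP carries from the endoplasmic reticulum to the Golgi for activation and which the INSIG proteins hold back when sterols are plentiful. Endothelium and blood progenitors use these lipids for membranes, and cholesterol-rich membrane domains hold many of their surface receptors.

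The promoters of 3 pairs of related genes are shown because the values of each pair are compared later. They were taken from RefSeq on GRCh38.p14 as windows from 250 bases before to 50 bases after an annotated start, and 30 of the 34 genes had an entry. SC5DL was matched by its current symbol, SC5D. Capitals mark the sterol regulatory element (the first capitals in SREBF2), CCAAT (the CCAAT box) and GGGCGG (the GC box), each searched on both strands, and adjacent GC boxes in SREBF2 and INSIG1 overlap. INSIG2 has 2 windows in the table, of which the first is printed.
SREBF1 (chr17:17836937-17837236, minus strand): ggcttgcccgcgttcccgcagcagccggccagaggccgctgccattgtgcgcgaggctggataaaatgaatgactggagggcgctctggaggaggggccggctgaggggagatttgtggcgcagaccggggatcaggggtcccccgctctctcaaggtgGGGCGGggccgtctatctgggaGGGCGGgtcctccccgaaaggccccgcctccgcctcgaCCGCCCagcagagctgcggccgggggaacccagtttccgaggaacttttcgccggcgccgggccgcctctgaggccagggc
SREBF2 (chr22:41832855-41833154, plus strand): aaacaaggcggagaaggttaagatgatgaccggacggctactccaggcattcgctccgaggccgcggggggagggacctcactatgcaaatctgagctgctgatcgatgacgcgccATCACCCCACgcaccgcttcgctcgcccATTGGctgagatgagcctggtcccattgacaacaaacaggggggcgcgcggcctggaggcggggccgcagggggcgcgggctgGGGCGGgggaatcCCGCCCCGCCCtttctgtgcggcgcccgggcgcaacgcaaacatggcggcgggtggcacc
INSIG1 (chr7:155297628-155297927, plus strand): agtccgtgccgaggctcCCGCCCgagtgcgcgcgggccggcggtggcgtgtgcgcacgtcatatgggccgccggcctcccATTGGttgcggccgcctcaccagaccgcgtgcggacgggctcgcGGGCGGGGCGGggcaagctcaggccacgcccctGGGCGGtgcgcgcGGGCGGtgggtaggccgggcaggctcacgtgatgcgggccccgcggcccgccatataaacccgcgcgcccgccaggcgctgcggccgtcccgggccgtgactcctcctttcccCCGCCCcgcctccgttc
INSIG2 (chr2:118088221-118088520, plus strand): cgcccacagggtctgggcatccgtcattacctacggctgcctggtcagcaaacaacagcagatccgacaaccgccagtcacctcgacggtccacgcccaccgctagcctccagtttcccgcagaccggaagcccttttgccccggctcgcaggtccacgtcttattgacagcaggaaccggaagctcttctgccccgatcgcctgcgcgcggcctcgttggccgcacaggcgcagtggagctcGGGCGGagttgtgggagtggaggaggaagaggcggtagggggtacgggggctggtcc
ELOVL6 (chr4:110198566-110198865, minus strand): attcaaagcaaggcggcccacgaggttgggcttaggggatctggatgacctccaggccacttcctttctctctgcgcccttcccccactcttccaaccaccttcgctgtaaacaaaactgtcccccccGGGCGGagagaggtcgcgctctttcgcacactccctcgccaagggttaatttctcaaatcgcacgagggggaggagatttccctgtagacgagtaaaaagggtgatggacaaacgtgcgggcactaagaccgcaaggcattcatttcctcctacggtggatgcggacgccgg
ELOVL5 (chr6:53348901-53349200, minus strand): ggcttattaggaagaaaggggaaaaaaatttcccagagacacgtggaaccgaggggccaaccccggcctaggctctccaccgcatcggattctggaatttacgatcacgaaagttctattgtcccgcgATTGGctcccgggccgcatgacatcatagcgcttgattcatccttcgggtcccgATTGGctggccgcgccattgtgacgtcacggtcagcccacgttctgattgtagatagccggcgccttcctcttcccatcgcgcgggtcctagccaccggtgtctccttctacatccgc
For the sterol regulatory element only 1 fixed pattern of letters, with 1 position left free, was searched. A match was found in the window of 1 of the 30 genes, SREBF2, and in any window of 0.19% of all 27305 genes in the table. In SREBF2 the match lay upstream of a CCAAT box on the other strand. Elements that deviate from the pattern or lie outside the windows were not searched. The 4 genes without an entry were not searched either. A gene without a match may therefore still have a sterol regulatory element. The CCAAT box was found in 23 of the 30 genes (76.7%), against 39.7% of all genes, and the GC box in 28 of the 30 (93.3%), against 48.3%. The letters AGATAA, which GATA factors bind, were found in 2 of the 30 (6.67%), CYP51A1 and FDPS, against 12.4% of all genes. TATAAA was found in 2 (6.67%), HMGCS1 and INSIG1, against 14%. The shares of all genes cover every gene with a promoter window, expressed in these cells or not, and levels were not matched. A match describes these windows and does not show that a factor binds there.

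SREBF1 and SREBF2 each contain a microRNA gene, MIR33B and MIR33A, whose mature forms share the seed UGCAUUG. They are shown with the seed (bases 2 to 8, capitals) because they lie inside the 2 SREBP genes.
hsa-miR-33b-5p (chr17:17813897-17813916, minus strand): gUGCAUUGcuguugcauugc
hsa-miR-33a-5p (chr22:41900949-41900969, plus strand): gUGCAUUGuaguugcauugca
Both microRNA rows were listed at 0 in all 4 libraries. These were Illumina TruSeq RNA libraries, and recovery of RNAs this short was not tested, so absence cannot be read from these values.

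**Figure D1:**
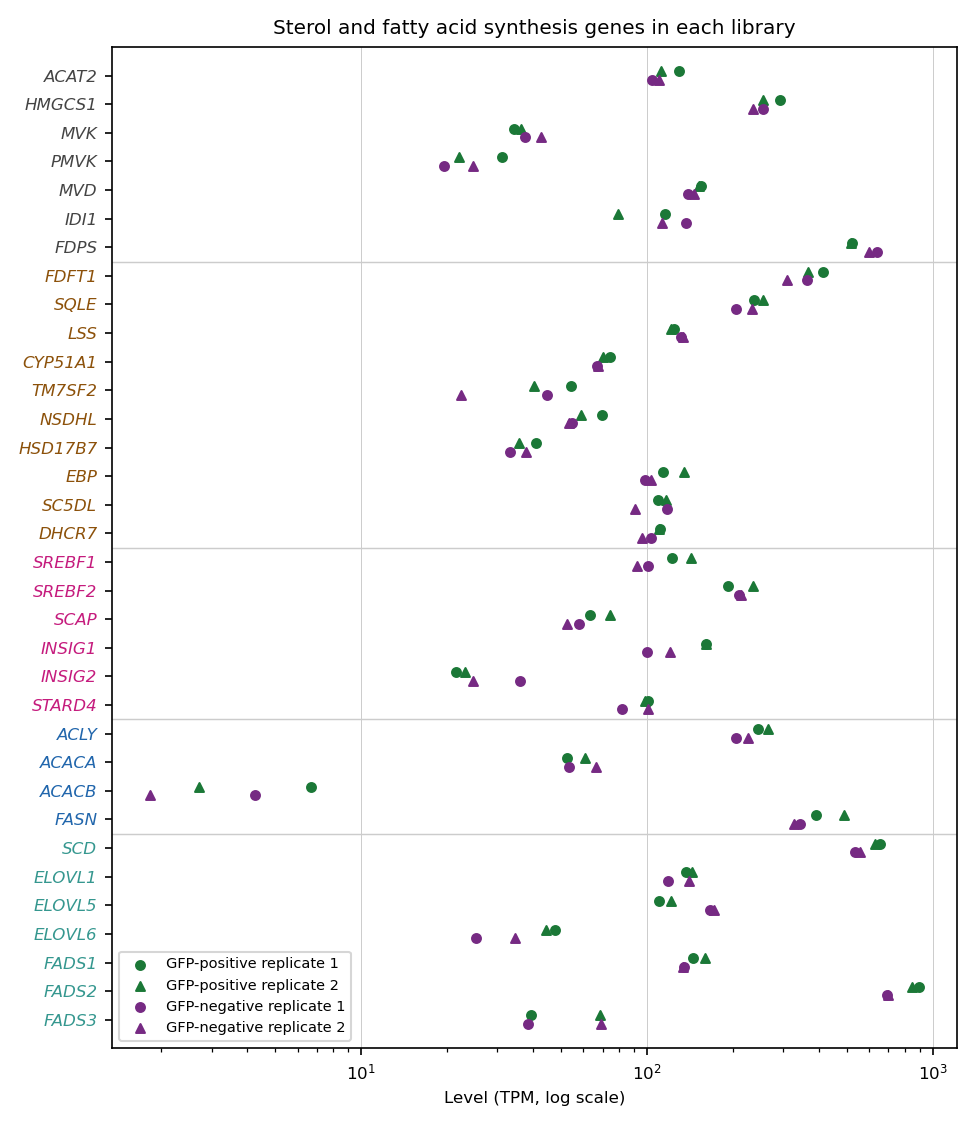
Level of each of the 34 genes in each library, in TPM on a log axis, with green for GFP-positive and purple for GFP-negative libraries, circles for replicate 1 and triangles for replicate 2. Gene names are coloured by role in the order mevalonate steps, squalene to cholesterol, sensing and transfer, fatty acid synthesis, elongation and desaturation. The 4 points of most genes lie close together, FADS2 is the most abundant gene shown and ACACB the least.

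The comparison asked whether cells sorted as eGFP-positive and eGFP-negative, all carrying the reporter, differ in this machinery. The genes were abundant in both groups at similar levels. Together they held 0.603% and 0.608% of TPM in the GFP-positive libraries, against 0.548% and 0.546% in the GFP-negative libraries. None of the 34 passed a Benjamini-Hochberg adjusted p of 0.05 in limma, where 0.447% of all 15425 tested genes did (0.123% higher and 0.324% lower), and the smallest adjusted p among them was 0.198, that of ELOVL5. The 34 also had 0 calls in the settings that called most genes, at 3.86% with a replicate block, 1.39% with a mean above 5 TPM and 0.829% with upper quartile scaling, and 0 with median of ratios scaling, which called 0.454%. At an unadjusted p under 0.05 there were 6 of the 34 (17.6%), close to the 14.1% of all tested genes: SREBF1, INSIG1, FASN, FADS2 and ELOVL6 with higher and ELOVL5 with lower values in GFP-positive cells. Higher values at that p were found for 5 of the 34, against 6.69% of all tested genes, and lower values for 1, against 7.38%. Leaving out replicate 2 of the GFP-positive group, or either replicate of the GFP-negative group, reduced the 6 to 2, and leaving out replicate 1 of the GFP-positive group to 5. The count was 0 with no variance trend and 3 with upper quartile scaling.

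The differences were small and mostly in 1 direction. Of the 34 genes, 27 had a log2 fold change above 0 (79.4%, against 51.8% of all tested genes), and 7 below 0 (20.6%, against 48.2%). With either other scaling 25 were above 0, and 23 were without GFP-negative replicate 1. The shares of all tested genes above 0 in those settings are not given here. Their log2 fold changes ran from -0.54 to 0.62 with a median of 0.16, against a median of 0.02 over all tested genes. With upper quartile scaling the median of the 34 was 0.0751. That scaling shifts all other genes too, and their median under it is not given here, so 0.0751 cannot be set against 0.02. Absolute log2 fold changes above 1 were found for 0 of the 34, against 12.4% of all tested genes. The 95% interval of the difference, not adjusted for the number of genes, lay within -1 and 1 for 30 of the 34, that is, within a 2-fold change either way, against 35.9% of all tested genes. The exceptions were TM7SF2, INSIG2, ACACB and ELOVL6. The groups did not overlap for 22 genes (64.7%, against 44.3%). The GFP-positive pair was the higher for 17 of the 34 (50%, against 22.8% of all tested genes) and the lower for 5 (14.7%, against 21.5%), and 12 genes overlapped. The genes are more abundant than most, and levels were not matched in these comparisons with all genes.

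**Figure D2:**
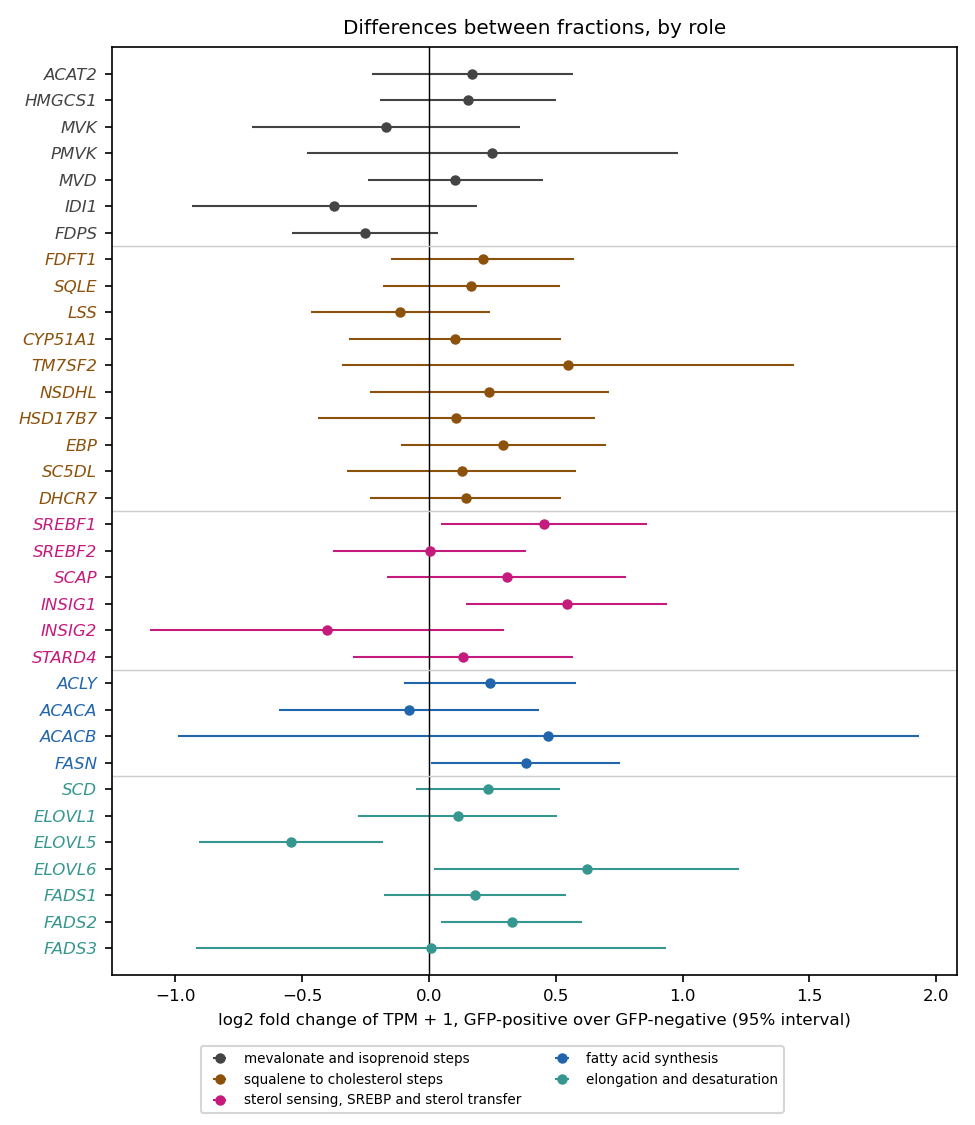
Log2 fold change of TPM + 1 (GFP-positive over GFP-negative) of each gene with its 95% interval from limma, coloured by role. All points lie between -0.54 and 0.62, and the intervals of SREBF1, INSIG1, FASN, FADS2 and ELOVL6 lie above 0 and that of ELOVL5 below 0 before adjustment for the number of genes tested.

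**Figure D3:**
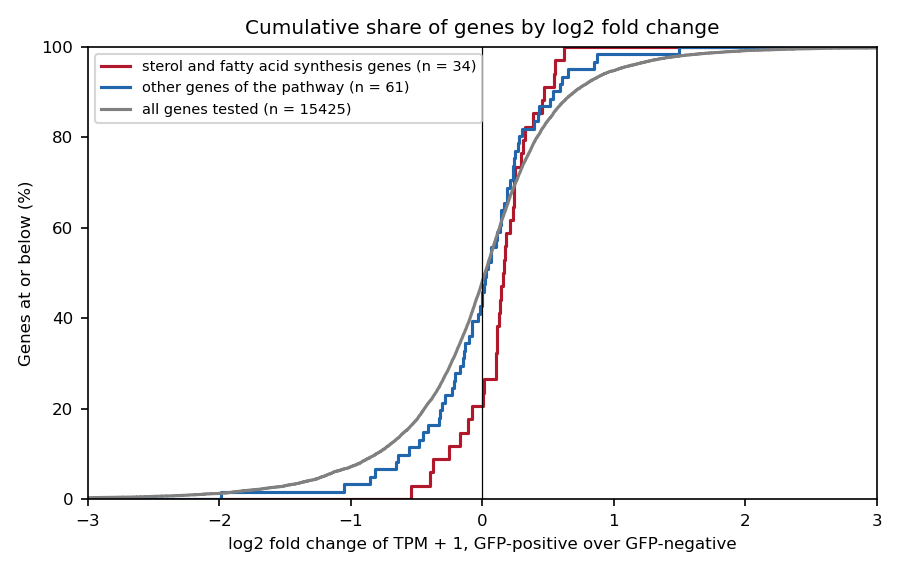
Cumulative percent of genes at or below each log2 fold change (GFP-positive over GFP-negative) for the 34 genes (red), 61 tested genes of the same pathway that are not among them (blue) and all 15425 tested genes (grey); the axis stops at -3 and 3. The red curve is the steepest, and 7 of its 34 genes lie below 0.

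By mean level over the 4 libraries, the genes spanned a wide range. FADS2, a desaturase of polyunsaturated fatty acids, was the most abundant at 693 to 893 TPM. It was followed by SCD, which makes monounsaturated fatty acids, at 536 to 653 TPM, and FDPS, which makes farnesyl diphosphate, at 516 to 641 TPM. Next came FASN, the fatty acid synthase, at 328 to 489 TPM and FDFT1, the squalene synthase, at 309 to 414 TPM. The lowest were PMVK, phosphomevalonate kinase, at 19.4 to 31.2 TPM and ACACB, the acetyl-CoA carboxylase of the mitochondrial surface, at 1.83 to 6.70 TPM. Of the 33 neighbouring pairs in this order, 6 had ranges over the 4 libraries that did not overlap, among them FADS2 over SCD, FDPS over FASN, FDFT1 over HMGCS1 and PMVK over ACACB. FADS2 lay between the 99.4th and 99.6th percentile of all rows, and ACACB at most at the 61.6th.

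The enzymes that lead to isoprenoids went in both directions. Of 7, 4 had a log2 fold change above 0 (57.1%, against 51.8% of all tested genes) and 3 below, and 0 passed in limma at an adjusted p of 0.05 or at an unadjusted p under 0.05. HMGCS1, which makes HMG-CoA, had 293 and 255 TPM in the GFP-positive libraries, against 256 and 235 TPM in the GFP-negative libraries, so the groups overlapped narrowly. Its log2 fold change was 0.15 ± 0.14 (SE; limma adjusted p = 0.706). FDPS had 522 and 516 TPM in GFP-positive libraries, against 641 and 597 TPM in GFP-negative libraries. It was the most abundant gene of the route, and here the GFP-positive libraries were the lower ones, without overlap (log2 fold change -0.25 ± 0.12, SE; limma adjusted p = 0.414). FDPS has 8 pseudogenes named after it in GENCODE v29, so its reads may have been split. The same limit holds for CYP51A1 (3 such pseudogenes), HSD17B7 (2), SCD (1) and FADS2 (1).

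IDI1, the isomerase of the isoprenoid units, had 116 and 79.4 TPM in GFP-positive libraries, against 137 and 113 TPM in GFP-negative libraries. GFP-positive replicate 1 lay between the GFP-negative libraries, and the log2 fold change of -0.37 was -0.64 without that library and -0.10 without GFP-positive replicate 2. MVK, mevalonate kinase, had 34.4 and 36.4 TPM, against 37.5 and 42.5 TPM in GFP-negative libraries, close levels with the GFP-positive libraries below. The gene for the next kinase, PMVK, had 31.2 and 22.0 TPM in GFP-positive libraries and 19.4 and 24.7 TPM in GFP-negative libraries, with overlap. MVD, the decarboxylase that follows, had 154 and 153 TPM in GFP-positive libraries and 140 and 146 TPM in GFP-negative libraries. ACAT2, the cytosolic thiolase of the entry step, had 130 and 112 TPM in GFP-positive libraries and 104 and 110 TPM in GFP-negative libraries. In MVD and ACAT2 the GFP-positive libraries lay above without overlap, with log2 fold changes of 0.10 ± 0.14 and 0.17 ± 0.16 (SE). ACAT2 and MVK overlap protein-coding genes on the opposite strand in GENCODE v29 (SOD2 and TCP1 for ACAT2, MMAB for MVK), and whether strand was used in counting is not given in the sources used here.

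From squalene to cholesterol, 9 of 10 genes had a log2 fold change above 0 (90%, against 51.8% of all tested genes), and 0 of the 10 passed in limma, adjusted or at an unadjusted p under 0.05. FDFT1, the first step of this stretch, had 414 and 366 TPM in GFP-positive libraries, against 365 and 309 TPM in GFP-negative libraries. SQLE, squalene epoxidase, had 238 and 255 TPM, against 205 and 234 TPM in GFP-negative libraries. In both genes all GFP-positive values were above, FDFT1 by a margin of about 1 TPM and SQLE by a few TPM, and the log2 fold changes were 0.21 ± 0.15 and 0.17 ± 0.14 (SE). EBP, a sterol isomerase, had 114 and 135 TPM in GFP-positive libraries and 98.4 and 104 TPM in GFP-negative libraries (log2 fold change 0.29 ± 0.17, SE; limma adjusted p = 0.498). LSS, which closes the rings to lanosterol, was the gene below 0, at 124 and 122 TPM in GFP-positive libraries and 132 and 134 TPM in GFP-negative libraries (-0.11 ± 0.15, SE).

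TM7SF2, a sterol reductase, had the highest fold change of the sterol enzymes and the least certain one. It had 54.5 and 40.3 TPM in GFP-positive libraries, against 44.7 and 22.4 TPM in GFP-negative libraries. In both groups replicate 2 was the lower one, and the log2 fold change of 0.55 ± 0.37 (SE) was 0.0684 when GFP-negative replicate 2 was left out and 1.03 when GFP-negative replicate 1 was. NSDHL, of sterol demethylation, had 69.7 and 58.7 TPM in GFP-positive libraries and 54.8 and 53.3 TPM in GFP-negative libraries. The remaining enzymes differed little: CYP51A1, the lanosterol demethylase, had 74.3 and 70.2 TPM in GFP-positive libraries and 67.0 and 67.4 TPM in GFP-negative libraries. DHCR7, a reductase of the last steps, had 111 and 110 TPM in GFP-positive libraries, against 104 and 96.5 TPM in GFP-negative libraries. Both had all GFP-positive values above, while the groups overlapped for HSD17B7 (33.2 to 41.0 TPM over the 4 libraries) and SC5DL (91.0 to 117 TPM).

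Summed over the 17 sterol enzymes, levels were 2631 and 2483 TPM in GFP-positive libraries, against 2555 and 2418 TPM in GFP-negative libraries, so the sums overlapped. Their means differed by 1.03-fold, and the log2 ratio of the sums, 0.04, was -0.0442 with upper quartile scaling and -0.0021 without GFP-positive replicate 1. The 7 genes up to FDPS summed to 1281 and 1174 TPM in GFP-positive libraries and 1335 and 1268 TPM in GFP-negative libraries, with overlap, and their median log2 fold change was 0.10. The 10 genes from FDFT1 on summed to 1350 and 1309 TPM in GFP-positive libraries and 1220 and 1150 TPM in GFP-negative libraries, without overlap, and their median was 0.16. FDPS held 19.8% and 20.8% of the sterol sum in GFP-positive libraries and 25.1% and 24.7% in GFP-negative libraries. The share of FDFT1, the next enzyme, was 15.7% and 14.7% in GFP-positive libraries and 14.3% and 12.8% in GFP-negative libraries.

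**Figure D4:**
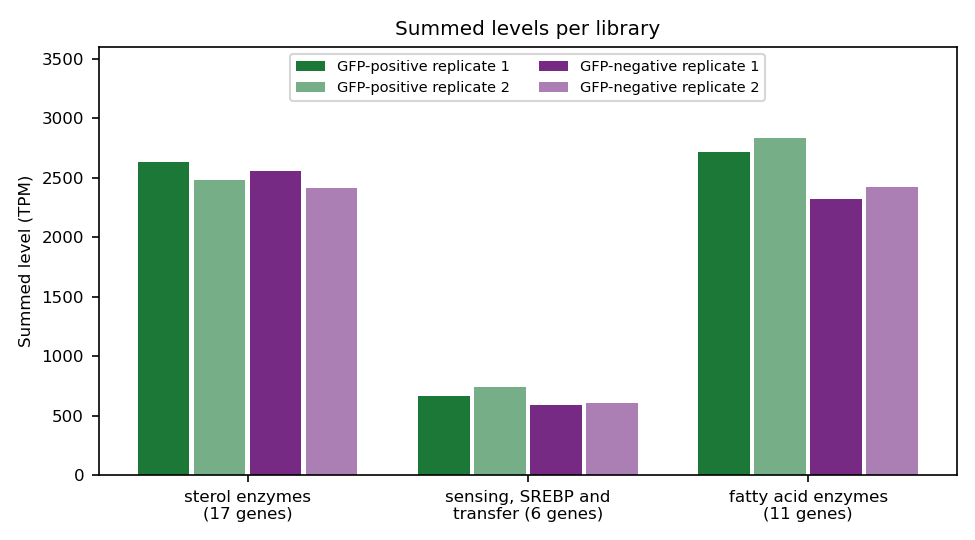
Summed TPM of the 17 sterol enzymes, the 6 genes of sensing, SREBP and transfer and the 11 fatty acid enzymes in each library, with GFP-positive libraries in green and GFP-negative libraries in purple. The sterol sums overlap between groups, and the fatty acid sums are 2720 and 2836 TPM in GFP-positive libraries and 2318 and 2424 TPM in GFP-negative libraries.

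Among the 6 genes of sensing and transfer, 5 had a log2 fold change above 0 (83.3%, against 51.8% of all tested genes), 0 passed an adjusted p of 0.05 in limma, and 2 had an unadjusted p under 0.05 (33.3%, against 14.1%). SREBF1, whose products include a form that acts mainly on fatty acid genes, had 123 and 143 TPM in GFP-positive libraries, against 101 and 92.1 TPM in GFP-negative libraries. These gene-level values do not separate its forms. The groups did not overlap, and the log2 fold change was 0.45 ± 0.17 (SE; 95% interval 0.05 to 0.86; limma adjusted p = 0.311). SREBF2 has a product that acts mainly on sterol genes, and its promoter window held the match to the sterol regulatory element. It had 192 and 236 TPM in GFP-positive libraries, on either side of 210 and 214 TPM in GFP-negative libraries. Its log2 fold change was 0.00 ± 0.16 (SE; 95% interval -0.38 to 0.38), and its sign turned with both other scalings. SREBF1 overlaps RAI1 on the opposite strand in GENCODE v29.

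INSIG1, which holds the SREBP complex in the endoplasmic reticulum and is itself an SREBP target, had 161 and 161 TPM in GFP-positive libraries, against 101 and 121 TPM in GFP-negative libraries. The GFP-positive libraries were nearly equal and above both others (log2 fold change 0.54 ± 0.16, SE; 95% interval 0.15 to 0.94; limma adjusted p = 0.227). INSIG2, a related protein, had 21.5 and 23.2 TPM in GFP-positive libraries, against 35.9 and 24.7 TPM in GFP-negative libraries. Here the GFP-positive libraries were below, and the log2 fold change of -0.40 ± 0.29 (SE) was -0.14 without GFP-negative replicate 1. SCAP, the escort of the SREBPs, had 63.2 and 74.5 TPM in GFP-positive libraries and 58.0 and 52.6 TPM in GFP-negative libraries. STARD4, which carries sterol through the cytosol, had 101 and 98.9 TPM in GFP-positive libraries and 82.1 and 101 TPM in GFP-negative libraries, with overlap.

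In fatty acid synthesis, 3 of 4 genes had a log2 fold change above 0 (75%, against 51.8% of all tested genes), 0 passed an adjusted p of 0.05 in limma, and 1 had an unadjusted p under 0.05 (25%, against 14.1%). FASN had 391 and 489 TPM in GFP-positive libraries, against 343 and 328 TPM in GFP-negative libraries. All GFP-positive values were above, with replicate 2 the highest (log2 fold change 0.38 ± 0.15, SE; 95% interval 0.01 to 0.75; limma adjusted p = 0.342), and without GFP-positive replicate 2 the log2 fold change was 0.22. ACLY, which releases acetyl-CoA from citrate, had 245 and 266 TPM in GFP-positive libraries, against 206 and 226 TPM in GFP-negative libraries, also without overlap (0.24 ± 0.14, SE; limma adjusted p = 0.505). ACACA, the cytosolic acetyl-CoA carboxylase between these steps, had 52.5 and 60.6 TPM in GFP-positive libraries and 53.3 and 66.6 TPM in GFP-negative libraries. These overlapped, as did those of ACACB, at 6.70 and 2.71 TPM in GFP-positive libraries and 4.26 and 1.83 TPM in GFP-negative libraries, where replicate 2 was the lower in both groups.

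Of 7 elongation and desaturation genes, 6 had a log2 fold change above 0 (85.7%, against 51.8% of all tested genes), 0 passed an adjusted p of 0.05 in limma, and 3 had an unadjusted p under 0.05 (42.9%, against 14.1%). ELOVL5, which elongates polyunsaturated chains, had 110 and 121 TPM in GFP-positive libraries, against 166 and 171 TPM in GFP-negative libraries. It was the 1 gene of the 7 with lower values in GFP-positive cells, well below without overlap (log2 fold change -0.54 ± 0.15, SE; 95% interval -0.90 to -0.18; limma adjusted p = 0.198). ELOVL6, which takes saturated chains to stearate length, had 47.9 and 44.2 TPM in GFP-positive libraries, against 25.3 and 34.5 TPM in GFP-negative libraries. This was the highest fold change of the 34 genes, with a log2 fold change of 0.62 ± 0.25 (SE; 95% interval 0.02 to 1.22; limma adjusted p = 0.339). Without GFP-negative replicate 1 it was 0.41, and TM7SF2, ACACB, SREBF1, FASN and INSIG1 were then higher. Without GFP-positive replicate 2 it was 0.68, and ACACB and TM7SF2 were then higher, at 1.00 and 0.76. ELOVL1, which makes very long saturated chains, had 137 and 144 TPM in GFP-positive libraries and 119 and 141 TPM in GFP-negative libraries, with overlap.

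FADS2 had 893 and 849 TPM in GFP-positive libraries, against 693 and 697 TPM in GFP-negative libraries. The groups stood clearly apart although the difference was modest (log2 fold change 0.33 ± 0.11, SE; 95% interval 0.05 to 0.60; limma adjusted p = 0.287). SCD had 653 and 630 TPM in GFP-positive libraries and 536 and 556 TPM in GFP-negative libraries, again without overlap (0.23 ± 0.12, SE; limma adjusted p = 0.438). FADS1, the desaturase that acts after FADS2 on polyunsaturated chains, had 145 and 160 TPM in GFP-positive libraries and 135 and 134 TPM in GFP-negative libraries (0.18 ± 0.15, SE). In GENCODE v29 (GRCh38), FADS1 on the minus strand of chromosome 11 (61799625 to 61829318) and FADS2 on the plus strand (61792980 to 61867354) overlap over 29694 bases, introns included, and 490 bases are exonic in both over all annotated transcripts. Without strand, reads from those exonic bases cannot be told apart. FEN1 overlaps FADS2 on the same strand, as VPS51 does TM7SF2, and AC000120.2 and AC000120.3 do CYP51A1. Strand would not separate such reads, and the exonic bases of these overlaps were not examined. FADS3, a related gene of sphingolipid desaturation, had 39.2 and 68.6 TPM in GFP-positive libraries and 38.3 and 69.3 TPM in GFP-negative libraries. Its level followed the replicate number and not the group, with replicate 2 at 1.75 times replicate 1 in GFP-positive and 1.81 times in GFP-negative cells.

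Summed over the 11 fatty acid enzymes, levels were 2720 and 2836 TPM in GFP-positive libraries, against 2318 and 2424 TPM in GFP-negative libraries. These sums did not overlap and their means differed by 1.17-fold, or by 0.23 on the log2 scale and 0.14 with upper quartile scaling. FADS2 and SCD together dominated the sum. FADS2 held 32.8% and 29.9% of it in GFP-positive libraries and 29.9% and 28.7% in GFP-negative libraries, and SCD 24.0% and 22.2% in GFP-positive libraries and 23.1% and 22.9% in GFP-negative libraries. ELOVL5 held 4.04% and 4.27% of the sum in GFP-positive libraries, against 7.16% and 7.06% in GFP-negative libraries.

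Ratios within a library do not depend on how libraries are scaled to each other. Of 10 ratios computed, 7 did not overlap between groups, and 4 of the 7 are described, chosen after their values were seen. As single genes 44.3% of all those tested did not overlap, but the share for ratios of other gene pairs was not computed. INSIG1 stood at 7.48 and 6.95 times INSIG2 in GFP-positive libraries, against 2.80 and 4.89 times in GFP-negative libraries. SREBF1 stood at 0.640 and 0.605 of SREBF2 in GFP-positive libraries, against 0.481 and 0.430 in GFP-negative libraries. The ratio of ELOVL6 to ELOVL5 was 0.436 and 0.365 in GFP-positive libraries, against 0.152 and 0.201 in GFP-negative libraries. In these 3 pairs the GFP-positive ratios were all higher, without overlap. The ratio of FDPS to FDFT1, of consecutive steps of the sterol route, was 1.26 and 1.41 in GFP-positive libraries, against 1.76 and 1.93 in GFP-negative libraries, and so lower. The 3 ratios that overlapped were ACACA to ACACB, SCD to FASN and SREBF1 to INSIG1. The last was 0.761 and 0.886 in GFP-positive libraries and 1.01 and 0.762 in GFP-negative libraries. An exact two-sided permutation test of 2 against 2 libraries cannot go below p = 0.333, and each of the 4 ratios reached that value. In the printed promoter windows, those of SREBF1 and SREBF2 held 3 GC boxes each, with a CCAAT box in SREBF2 alone. That of INSIG1 held 6 GC boxes and 1 CCAAT box against 1 and 0 in that of INSIG2, and that of ELOVL5 2 CCAAT boxes and no GC box against 0 and 1 in that of ELOVL6.

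**Figure D5:**
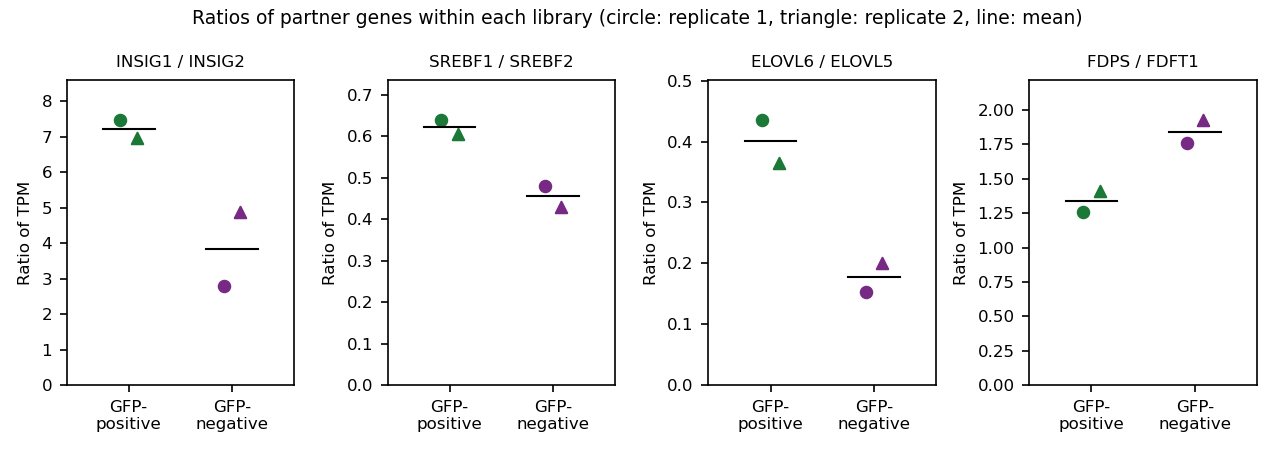
Ratio of TPM of INSIG1 to INSIG2, SREBF1 to SREBF2, ELOVL6 to ELOVL5 and FDPS to FDFT1 in each library, with GFP-positive at the left of each panel, circles for replicate 1, triangles for replicate 2 and a line for the mean. The groups do not overlap in any panel; the GFP-positive mean is 7.22 against 3.84 for INSIG1 to INSIG2 and 1.34 against 1.84 for FDPS to FDFT1.

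Other genes of the pathway, 67 rows that are not among the 34, were examined as lists, and 61 were tested. None of the 61 passed in limma (0.447% of all tested genes did), 8 had an unadjusted p under 0.05 (13.1%, against 14.1%), and their median log2 fold change was 0.03. The 6 tested of other sterol and isoprenoid enzymes had log2 fold changes of only -0.14 to 0.13, with 3 above (50%, against 51.8% of all tested genes) and 3 below 0. GGPS1, which makes the geranylgeranyl unit, had 40.4 and 31.3 TPM in GFP-positive libraries and 38.5 and 40.1 TPM in GFP-negative libraries. For 0 of these 6 did the groups stand apart, against 44.3% of all tested genes.

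Of 13 genes of SREBP processing and turnover, 8 were above (61.5%, against 51.8% of all tested genes) and 5 below 0, with a median log2 fold change of 0.07. FBXW7, a ubiquitin ligase subunit that marks active SREBPs for destruction, had 13.1 and 13.4 TPM in GFP-positive libraries, against 25.6 and 22.7 TPM in GFP-negative libraries (log2 fold change -0.82 ± 0.28, SE; limma adjusted p = 0.286). RNF139, a ubiquitin ligase of the endoplasmic reticulum, had 25.4 and 27.8 TPM in GFP-positive libraries and 19.6 and 19.6 TPM in GFP-negative libraries. In FBXW7 the GFP-positive libraries were the lower, in RNF139 the higher, both without overlap. The groups did not overlap for 6 of the 13 genes (46.2%, against 44.3% of all tested genes).

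Of 18 tested genes of cholesterol uptake, movement and efflux, 7 were above (38.9%, against 51.8% of all tested genes) and 11 below 0, with a median log2 fold change of -0.19. ABCG1, an exporter of sterol, had 0.980 and 3.38 TPM in GFP-positive libraries, against 12.4 and 9.25 TPM in GFP-negative libraries (log2 fold change -1.99 ± 0.55, SE; limma adjusted p = 0.199). VLDLR, a lipoprotein receptor, had 10.6 and 13.1 TPM in GFP-positive libraries, against 18.8 and 26.1 TPM in GFP-negative libraries (-0.86 ± 0.33, SE). MYLIP, a ubiquitin ligase that removes lipoprotein receptors, had 42.1 and 27.9 TPM in GFP-positive libraries, against 20.2 and 17.1 TPM in GFP-negative libraries (0.85 ± 0.30, SE; limma adjusted p = 0.293). All 3 were without overlap, MYLIP above and the others below. The groups did not overlap for 9 of the 18 genes (50%, against 44.3% of all tested genes).

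Genes that supply and activate fatty acids or serve in elongation had 16 of 24 tested above (66.7%, against 51.8% of all tested genes) and 8 below 0, with a median log2 fold change of 0.18. ACSL6, an acyl-CoA synthetase, had 8.05 and 15.2 TPM in GFP-positive libraries, against 2.45 and 4.32 TPM in GFP-negative libraries (2.82-fold on the TPM + 1 scale, 95% interval 1.21 to 6.57; limma adjusted p = 0.268). ME1, malic enzyme, a source of NADPH, had 16.6 and 8.16 TPM in GFP-positive libraries and 3.69 and 9.29 TPM in GFP-negative libraries, with overlap. MLX, a partner of the glucose-sensing factors that act on lipid genes, had 61.6 and 84.1 TPM in GFP-positive libraries, against 50.5 and 40.9 TPM in GFP-negative libraries (0.65 ± 0.24, SE; limma adjusted p = 0.302).

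Summed markers of several cell types and states differed between the groups, and limma called 1 endothelial marker (CD34) lower and 2 blood (GFI1 and MYB) and 2 erythroid markers (HBG2 and KEL) higher in GFP-positive cells at an adjusted p of 0.05. In bulk samples fewer cells of a type and less RNA per cell cannot be told apart. Of 13 measured endothelial markers, 13 had lower values in GFP-positive cells. Their summed levels were 4190 and 4448 TPM, against 7471 and 6912 TPM in GFP-negative cells. Both groups held abundant ones such as EGFL7 (1641 and 1681 TPM, against 2181 and 2123 TPM in GFP-negative libraries), the largest part of the sums. Others were low in GFP-positive libraries. EMCN had 18.8 and 12.0 TPM there, against 194 and 91.5 TPM in GFP-negative libraries, and CLDN5 1.09 and 0 TPM, against 7.46 and 5.36 TPM. PECAM1 was not analysed here. The 8 markers of dividing cells were all above 0, with a median log2 fold change of 0.39 and sums of 990 and 793 TPM in GFP-positive libraries, against 772 and 599 TPM in GFP-negative libraries. Erythroid markers summed to 559 and 364 TPM in GFP-positive libraries against 90.9 and 79.8 TPM in GFP-negative libraries, with 10 of 10 tested above 0 and AHSP at 0 in all 4, and 7 of 8 mesenchymal markers were above 0, with sums of 1463 and 1563 TPM in GFP-positive libraries against 698 and 934 TPM in GFP-negative libraries. Blood markers, of which 7 of 10 were above 0, summed to 570 and 731 TPM in GFP-positive libraries against 272 and 283 TPM in GFP-negative libraries, with PTPRC between 0.310 and 2.64 TPM in the 4 libraries. Of 5 tested platelet markers 4 were above 0 (111 and 120 TPM in GFP-positive libraries against 52.9 and 60.8 TPM in GFP-negative libraries). Of 4 tested pluripotency markers 1 was above 0 (98.2 and 85.6 TPM in GFP-positive libraries against 94.1 and 107 TPM in GFP-negative libraries), with SOX2 at 0 in all but GFP-negative replicate 1, which had 0.230 TPM. DPPA4 made up most of that sum, and POU5F1 had 0.930 and 0.030 TPM in GFP-positive libraries, against 9.68 and 5.88 TPM in GFP-negative libraries (limma adjusted p = 0.131). Of 5 tested hepatic markers 1 was above 0 (17.3 and 14.7 TPM in GFP-positive libraries against 56.1 and 89.2 TPM in GFP-negative libraries), with ALB at 0 in both GFP-positive libraries and GFP-negative replicate 1. APOA1 alone was the largest part of that sum in each library, at 8.42 and 7.41 TPM in GFP-positive libraries, against 38.0 and 63.6 TPM in GFP-negative libraries. The sums of all marker lists include listed genes that were not tested. The part of these cells or states in the values of the lipid genes was not tested.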

How the data were processed

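RNA sequencing libraries of 2 sorted fractions, 2 libraries each, were analysed; titles gave each library's group and replicate number. Per the labels' protocols, RNA came from a Trizol extraction and went into Illumina TruSeq RNA libraries. The authors deposited 1 table per library with Ensembl identifier, symbol and a value taken here as TPM, because each library sums to between 996323.64 and 997292.9 and the submitters' processing notes name RSEM. Those notes also name Bowtie and the builds hg19 and mm10, without versions or roles; for annotation and strand use, nothing was given in the sources used here. TPM rescales every gene to the library total, so a change of abundant genes shifts all others. Gene coordinates and overlaps came from GENCODE v29 on GRCh38, which holds 33 of the 34 identifiers.

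From these values limma 3.58.1 in R 4.3.3 was run on log2(TPM + 1), allowing the variance to depend on level, for the 15425 rows with at least 1 TPM in at least 2 libraries, with Benjamini-Hochberg adjustment over all of them (threshold 0.05, two-sided). Intervals are limma's, at 6.09 degrees of freedom. Tested on simulated data, the fit recovered only a minority of 2-fold changes and most 4-fold changes, and its false calls exceeded the share the threshold allows. The genes and lists were chosen with earlier results of these data known. All 34 genes were described; of pathway lists, any gene past the threshold was to be named, otherwise the 3 with the largest absolute fold change at a mean of at least 5 TPM, except that of other sterol enzymes only the first is named and that 1 gene of SREBP processing is not reported here. Of marker lists, those that check the labelled cell type or define another were to be named, and other markers were named after their values were seen. No gene set test was made. Alternatives, 11 in all, changed the pseudocount, filter, trend, scaling or block, or left out a library.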

Additional observations from a re-analysis of the deposited data

How the results depend on the processing

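In all 11 alternatives 0 of the 34 genes passed in limma, with adjusted p-values of at least 0.105, and so did 0 of the 61 other pathway genes. With the replicate number as a block limma called 596 of all genes, with a mean above 5 TPM 164, with upper quartile scaling 128, and with a pseudocount of 0.1, no filter or no variance trend 0, against 69 as reported; with a library left out it called 18 to 65. The 34 genes at an unadjusted p under 0.05 numbered 0 without a variance trend, 3 with upper quartile scaling and 2 to 5 with a library left out, against 6. Those with an interval within a 2-fold change numbered 23 to 30 in all alternatives. The median log2 fold change of all 34 was 0.0751 with upper quartile scaling and 0.13 to 0.19 with a library left out, that of the sterol enzymes 0.0593 and 0.0653 to 0.15, and that of the fatty acid enzymes 0.15 and 0.18 to 0.26. The log2 ratio of summed TPM was -0.0442 for sterol enzymes with upper quartile scaling and -0.0021 to 0.0815 with a library left out, and 0.14 for fatty acid enzymes with upper quartile scaling. For 27 of the 34 genes the sign held in every alternative. With a library left out, log2 fold changes ran from -0.0525 to 0.31 for SC5DL, -0.15 to 0.15 for SREBF2, -0.0139 to 0.28 for STARD4, -0.24 to 0.0791 for ACACA, -0.0565 to 1.00 for ACACB, -0.0077 to 0.24 for ELOVL1 and -0.41 to 0.43 for FADS3. SREBF2 was at -0.0825 and -0.0204 and FADS3 at -0.0749 and -0.0137 with upper quartile and median of ratios scaling. The cause of these changes was not tested. Where a library is left out, the lone library of its group is assumed to vary like the other group, and with a mean above 5 TPM ACACB was not tested. The replicate block stands for a shared number only, since no label says that it marks a shared culture and same-numbered libraries deviated together only weakly (Pearson's r = 0.0719 across genes, which are not independent replicates). It changed no call of the 34 genes. Low values such as those of ACACB rest on an unknown number of reads.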
